A study of Mus musculus with 24 samples.

Results

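The mitochondrial ribosomal protein genes were taken as every gene of the count table whose symbol is Mrpl or Mrps followed by a number and, in some cases, a letter a, b or c, with pseudogenes left out. This rule found 78 of 49315 genes, 49 of them Mrpl and 29 Mrps genes, and all 78 were among the 16070 genes that passed the filter on low counts. Their mRNA was measured by poly(A) RNA sequencing in MS03 cells, a single murine Schwann cell line labelled Nf2-/- in every group, DMSO included. *Nf2* mRNA stood at 180.5 CPM with DMSO, and since counts per gene do not show which part of a gene is deleted, they do not check that label. Cells were treated for 24 hours with the vehicle DMSO or with 1 of 7 drugs directed against focal adhesion kinase (FAK, encoded by *Ptk2*), with 3 biological replicates for each of the 8 groups, 24 libraries in all. Of these, 4 inhibit the kinase and were given at 1 μM, namely IN10018 (ifebemtinib), GSK2256098, VS-4718 and defactinib. The remaining 3 drugs were PROTACs, which bind FAK and an E3 ubiquitin ligase together so that the FAK protein is degraded. PROTAC FAK degrader 1 was given at 1 μM, and GSK215 and BSJ-04-0146 at 0.1 μM, so that dose and compound cannot be told apart between PROTAC FAK degrader 1 and the other PROTACs.

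Mitochondria carry their own ribosome, which translates the 13 proteins encoded by mitochondrial DNA, all of them subunits of the oxidative phosphorylation complexes. Its RNA comes from the mitochondrial genome, whereas its proteins are encoded in the nucleus, made in the cytosol, imported and assembled into a small subunit that decodes the mRNA and a large subunit that forms the peptide bonds. Part of these proteins descend from bacterial ribosomal proteins and part were added later, and inherited defects in several of them cause mitochondrial disease. A change in mRNA measured here says nothing of the amount of assembled mitoribosome. In bulk samples a change in the number of cells of 1 kind and a change in RNA per cell cannot be told apart.

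Library totals ran from 14472462 to 27449516 counts, and all 9 PROTAC libraries (at most 21588406) were shallower than all libraries of the other groups (at least 21654444). Counts of the 78 genes ranged from 31 to 5252 per library, the lowest for *Mrpl53*. Levels below are CPM, the share of a library's TMM-scaled total that a gene takes, and differences are log2 fold changes with the standard error (SE) from edgeR's quasi-likelihood test, called at a Benjamini-Hochberg adjusted p under 0.05 over all genes tested. Of the Schwann cell markers, *Sox10* (20.1 CPM), *Foxd3* (19.0 CPM) and *Ngfr* (10.4 CPM) were present with DMSO, whereas *S100b*, *Egr2* and *Gfap* had at most 7 counts in any DMSO library. The collagen genes *Col1a1* and *Col1a2*, also made by fibroblasts, stood at 392 and 1350 CPM, *Pdgfra* and *Pdgfrb* at 12.4 and 23.2 CPM, and *Dcn* and *Lum* had no count with DMSO (at most 3 counts of *Dcn* in any other library). Of these 4 expressed fibroblast markers, 3 rose and 1 fell with GSK215 (27.4% and 27.2% of all genes). With BSJ-04-0146, 2 rose and 2 fell (27.7% and 26.9%), and with PROTAC FAK degrader 1, 1 rose and 3 fell (34.1% and 32.7%). *Pdgfrb* and *Col1a1* also rose with defactinib, VS-4718 and GSK2256098, and *Col1a2* fell with VS-4718 and IN10018. Of the macrophage markers, *Ptprc* and *Adgre1* had no count with DMSO, *Itgam*, *Aif1* and *Csf1r* had at most 12 in any DMSO library, and *Cd68* had 65 to 94 (3.35 CPM). *Cd68* rose with VS-4718 (0.418), PROTAC FAK degrader 1 (1.70), GSK215 (0.816) and BSJ-04-0146 (1.17). *Csf1r* was called higher with BSJ-04-0146 (1.11, edgeR adjusted p = 0.0142), at 16 to 18 counts per library. The part of these markers in the results below was not tested. *Ptk2* mRNA, which the PROTACs do not target, was 95.3 CPM with DMSO, 77.9 CPM with GSK215 and 97.7 CPM with PROTAC FAK degrader 1.

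With DMSO, the level per kilobase of exon spanned from 3.01 to 127 CPM per kb over the 78 genes, with a median of 21.1. *Mrpl12*, whose protein forms the flexible stalk that recruits translation factors, was highest at 127 ± 2.19 CPM per kb (SD, n = 3). Next came *Mrpl28* at 81.9 ± 0.865 CPM per kb and *Mrpl18*, a protein of the central protuberance, at 75.8 ± 1.47 CPM per kb (SD, n = 3 each). The distances between these 3 levels exceeded their SDs. At the lower end stood *Mrpl23* at 3.21 ± 0.224, *Mrpl48* at 3.07 ± 0.0668 and *Mrpl53* at 3.01 ± 0.462 CPM per kb (SD, n = 3 each), which did not differ beyond their spread. The 51 proteins placed in the large subunit had a median of 21.4 CPM per kb and the 26 of the small subunit 20.6 CPM per kb. This placement counts *Mrps30* and *Mrps18a* to the large subunit, where structures found them in spite of their names, and leaves out *Mrps36*, now known as a subunit of the 2-oxoglutarate dehydrogenase complex. Exon length entered these levels, and it was taken as the union of all annotated exons, so that a gene with long rarely used exons appears low.

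**Figure D1:**
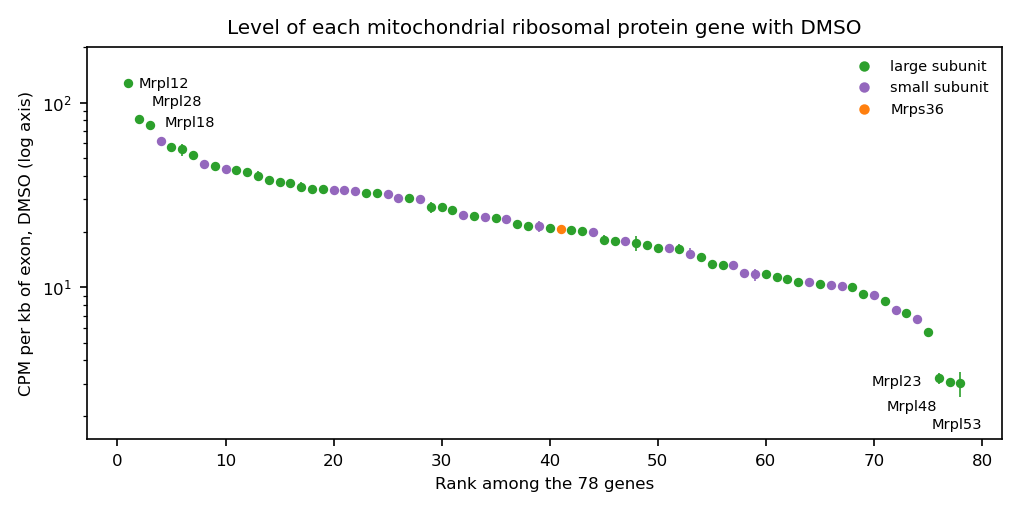
Mean CPM per kilobase of exon with DMSO (log axis, error bars are SD over 3 libraries) against rank for the 78 genes, coloured by ribosomal subunit. Large subunit genes run from 3.01 (*Mrpl53*) to 127 (*Mrpl12*) CPM per kb, and small subunit genes lie within that range, from 6.72 to 62.1 CPM per kb.

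In GENCODE M21 (GRCm38, the build of all positions given here) all 78 genes are annotated as protein-coding and lie on 17 chromosomes, 11 of them on chromosome 11. Their median exon length was 2394 bases, against 3506 bases for 21811 protein-coding genes. Exons of 33 genes overlap an exon of another gene, and in 10 the overlap covers at least 20% of exon length, among them *Mrps34* (100.4% summed over *Mapk8ip3* and *Nme3*), *Mrpl53* (89.9%), *Mrps25* (69.8% with *Nr2c2*) and *Mrpl19* (with *Gcfc2*). Whether reads were assigned by strand is not given in the sources used here, so that for these genes reads of the partner cannot be told apart. For 18 genes, a protein-coding neighbour on the opposite strand starts within 1000 bases, as *Psma2* does 75 bases from *Mrpl32* and *Sars2* 172 bases from *Mrps12*.

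RefSeq promoters (GRCm38.p6, from 250 bases before to 50 after the start) were at hand for 69 of the 78 genes, 75 promoters in all. Letters bound by 4 regulators of mitochondrial genes were searched on both strands: GCATGCGC, the core of the nuclear respiratory factor 1 site, CCGGAAG, bound by ETS factors such as GABPA, AAGATGGC, the core of the YY1 site, and the E-box CACGTG, bound by MYC among others. CCGGAAG was in 26 of the 75 promoters (34.7%), against 11.6% of 21263 promoters of protein-coding genes and 8.86% of all 32851 promoters. AAGATGGC was in 12 (16%, against 3.05% and 2.75%), GCATGCGC in 8 (10.7%, against 3.52% and 2.71%) and CACGTG in 7 (9.33%, against 7.84% and 7.15%). Promoters of the same gene were counted separately. Those with CACGTG include overlapping promoters of *Mrpl2* that begin at 46645971, 46645979 and 46645987, so its share by gene is smaller. A match is a stretch of letters and not a measured binding site. The stretches shown belong to genes that the results below turn on, the first 5 each holding a match and the last none. They are taken from the 120 bases before the RefSeq start, end before the gene annotated in GENCODE, and read 5′ to 3′ on the gene's strand, with matches in capitals.
*Mrpl9*, GCATGCGC on both strands with overlap, chr3:94443216-94443317, plus strand: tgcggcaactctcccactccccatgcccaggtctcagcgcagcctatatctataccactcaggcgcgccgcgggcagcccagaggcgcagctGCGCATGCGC
*Mrps22*, CCGGAAG, chr9:98601680-98601799, minus strand: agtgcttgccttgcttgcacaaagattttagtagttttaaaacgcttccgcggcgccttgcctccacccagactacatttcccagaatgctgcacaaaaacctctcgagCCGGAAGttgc
*Mrps27*, CCGGAAG on the opposite strand, chr13:99344666-99344785, plus strand: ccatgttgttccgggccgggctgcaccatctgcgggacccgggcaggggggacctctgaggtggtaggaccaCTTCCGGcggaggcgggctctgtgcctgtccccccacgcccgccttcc
*Mrps18a*, CCGGAAG, chr17:46110884-46110985, plus strand: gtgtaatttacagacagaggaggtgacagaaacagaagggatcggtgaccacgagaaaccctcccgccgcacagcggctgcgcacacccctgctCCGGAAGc
*Mrpl20*, CACGTG, chr4:155802758-155802877, plus strand: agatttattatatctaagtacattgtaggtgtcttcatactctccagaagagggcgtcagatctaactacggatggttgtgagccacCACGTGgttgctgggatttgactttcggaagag
*Mrpl14*, no match, chr17:45686229-45686321, plus strand: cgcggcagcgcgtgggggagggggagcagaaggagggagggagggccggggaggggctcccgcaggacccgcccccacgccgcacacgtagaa

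Summed over the 78 genes, the level was 4530 ± 72.9 CPM with DMSO (SD, n = 3). It was lowest with GSK215 at 3763 ± 34.1 CPM, followed by BSJ-04-0146 at 4031 ± 144, PROTAC FAK degrader 1 at 4204 ± 148 and defactinib at 4243 ± 82.7 CPM (SD, n = 3 each). GSK2256098 gave 4348 ± 46.2, VS-4718 4378 ± 61.8 and IN10018 4605 ± 83.8 CPM (SD, n = 3 each). All 3 libraries of each drug but IN10018 lay below the lowest DMSO library of 4473 CPM, whereas the IN10018 libraries (4509 to 4655 CPM) overlapped the DMSO libraries (4473 to 4612 CPM). From BSJ-04-0146 to VS-4718, neighbours in this order had overlapping libraries. The highest GSK215 library (3788 CPM) was below the lowest BSJ-04-0146 library (3889 CPM), and the highest VS-4718 library (4416 CPM) was below the lowest IN10018 library. As a share of all counts, without TMM, the lowest DMSO library was at 0.4334%. VS-4718 replicates 1 and 2 (0.4364% and 0.4373%) and PROTAC FAK degrader 1 replicate 1 (0.4394%) then lay above it. GSK215 stayed lowest by this share, but defactinib had a lower mean than BSJ-04-0146. Likewise GSK2256098 had a lower mean than PROTAC FAK degrader 1. A sum is carried by its most abundant genes, so each gene was then compared with DMSO.

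**Figure D2:**
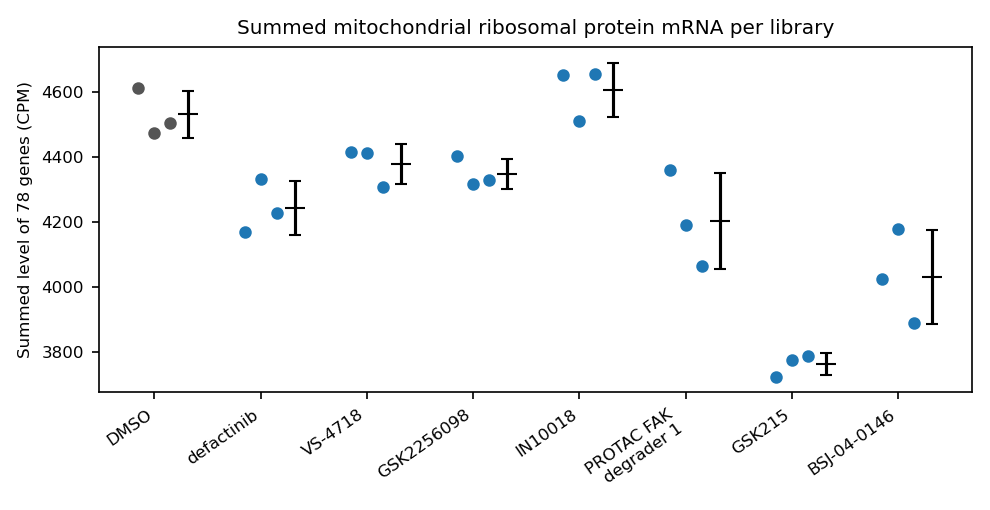
Summed CPM of the 78 genes in each library (points) and mean ± SD per group (bars, n = 3), on an axis that does not start at 0. GSK215 libraries sit lowest, between 3724 and 3788 CPM, and DMSO libraries between 4473 and 4612 CPM.

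The drugs were compared with DMSO to ask which mitochondrial ribosomal protein mRNAs respond to FAK inhibition or degradation. GSK215 gave the most decreases: 60 of the 78 genes fell and 3 rose, whereas 27.2% of all genes tested fell and 27.4% rose. The median log2 fold change of the 78 genes was −0.279, against 0.0211 over all genes. Scaling by library totals alone, without TMM, raised the median of all genes to 0.143, and then 44 genes fell and 9 rose, with a median of −0.156 for the 78. For 61 genes all 3 GSK215 libraries were below all 3 DMSO libraries, an order seen for 30.2% of all genes.

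*Mrpl32* (chromosome 13, 14608184 to 14613165), a large subunit protein that is matured by the m-AAA protease after import, fell the most with GSK215. Its DMSO libraries had 36.1, 36.8 and 34.7 CPM and its GSK215 libraries 22.9, 22.8 and 23.4 CPM. The groups did not overlap, and the log2 fold change was −0.638 (SE 0.067, edgeR adjusted p = 1.33e-10). *Mrps22* (chromosome 9, 98588730 to 98601660), a small subunit protein found in animals and mutated in inherited mitochondrial disease, went from 45.8, 49.97 and 46.8 CPM with DMSO to 30.2, 31.1 and 31.3 CPM with GSK215. Again the groups were apart, with a log2 fold change of −0.623 (SE 0.060, edgeR adjusted p = 1.22e-11). The abundant stalk gene *Mrpl12* had 197, 197 and 191 CPM with DMSO and 128, 132 and 134 CPM with GSK215, a log2 fold change of −0.574 (SE 0.038, edgeR adjusted p = 3.24e-16). Its partner *Mrpl10*, which anchors the stalk, had 63.2, 66.2 and 66.5 CPM with DMSO and 69.7, 66.8 and 67.8 CPM with GSK215 and did not pass the threshold (log2 fold change 0.059, SE 0.039, edgeR adjusted p = 0.213). With library totals alone, *Mrpl10* was called higher with GSK215 (0.181). Other genes that fell with GSK215 were *Mrpl47* (−0.602), *Mrps30* (−0.571), *Mrpl19* (−0.545) and *Mrps18b* (−0.545).

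The 3 genes that rose with GSK215 were *Mrps18a*, *Mrpl14* and *Mrpl24*, the last of them named after its values were seen. *Mrps18a* had 41.9, 40.1 and 41.0 CPM with DMSO and 49.6, 47.5 and 49.3 CPM with GSK215, a log2 fold change of 0.253 (SE 0.049, edgeR adjusted p = 2.63e-05). All treated libraries stood above all DMSO libraries. *Mrpl24* changed by 0.168 (SE 0.046, edgeR adjusted p = 0.00204), with 26.3% of its exon length overlapped by *Rrnad1* on the other strand. *Mrpl14* (chromosome 17, 45686322 to 45698495), a protein of the face that joins the subunits, changed by 0.182 (SE 0.064, edgeR adjusted p = 0.0158), but this call was lost with trends in GC content and length removed (0.035, edgeR adjusted p = 0.612, against 6.51e-05 with library totals alone at the other end) and without DMSO replicate 2 (0.133).

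BSJ-04-0146, given at the same dose, lowered 45 of the 78 genes and raised 10, while 26.9% of all genes fell and 27.7% rose. The median of the 78 genes was −0.153, against 0.0176 over all genes. Library totals alone raised the median of all genes to 0.126, and 31 genes then fell and 16 rose, with a median of −0.0444. All 3 BSJ-04-0146 libraries were below all DMSO libraries for 43 genes, an order seen for 29.1% of all genes.

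*Mrpl19*, a large subunit protein (chromosome 6, 81957851 to 81965958), fell the most with BSJ-04-0146, from 64.9, 58.6 and 62.6 CPM to 41.7, 39.0 and 40.4 CPM (log2 fold change −0.619, SE 0.048, edgeR adjusted p = 4.61e-14). *Mrps30* went from 66.4, 66.9 and 66.4 CPM to 49.0, 45.2 and 36.8 CPM (log2 fold change −0.608, SE 0.058, edgeR adjusted p = 1.14e-11). The third of these BSJ-04-0146 libraries was the lowest for *Mrps30*, and no treated library reached the DMSO range. *Mrps22* (−0.589), *Mrps27* (−0.562) and *Mrpl47* (−0.538) fell as well.

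The rises with BSJ-04-0146 were led by *Mrps18a*, which had 55.6, 55.3 and 52.8 CPM and a log2 fold change of 0.414 (SE 0.048, edgeR adjusted p = 1.50e-09). *Mrps6* (chromosome 16, 92058270 to 92112227), a small subunit protein of bacterial descent, rose from 50.1, 49.4 and 47.4 CPM to 65.7, 66.1 and 58.9 CPM (log2 fold change 0.378, SE 0.047, edgeR adjusted p = 9.02e-09). Part of the *Mrps6* exons (10.4%) is shared with *Slc5a3* on the same strand. *Mrpl14* (0.330) and *Mrps21* (0.326), a small subunit protein, also rose. *Mrpl23* was called higher as well (0.254), although 1 of its BSJ-04-0146 libraries (16.3 CPM) was below the highest DMSO library (16.9 CPM), and the call was lost without BSJ-04-0146 replicate 3 (0.191).

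PROTAC FAK degrader 1, at 1 μM, gave the widest spread of values among the 78 genes, from −1.08 to 0.815. Against DMSO it also had the largest shares of all genes called in each direction, and the spread over all genes was not measured. With this drug 39 genes fell and 20 rose, against 32.7% and 34.1% of all genes, and the median was −0.133 against 0.00452 over all genes. With library totals alone 31 genes fell and 23 rose, with a median of −0.0508.

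*Mrpl18* (chromosome 17, 12911349 to 12916345) fell to 47.4% of its DMSO level with PROTAC FAK degrader 1, from 108, 104 and 106 CPM to 49.6, 49.6 and 51.5 CPM (log2 fold change −1.08, SE 0.043, edgeR adjusted p = 1.54e-23). No other drug took any *Mrpl18* library below 77.3 CPM. Of its exon length, 10.1% is shared with *Tcp1* on the other strand. *Mrpl20* (chromosome 4, 155802878 to 155809975), a protein that in bacteria binds ribosomal RNA early in assembly, went from 62.0, 62.8 and 57.9 CPM to 33.2, 31.98 and 29.4 CPM (log2 fold change −0.948, SE 0.060, edgeR adjusted p = 4.47e-17). *Mrps11* (chromosome 7, 78783119 to 78792989), a protein of the small subunit platform, fell from 49.3, 46.3 and 43.3 CPM to 26.6, 24.5 and 25.3 CPM (log2 fold change −0.859, SE 0.059, edgeR adjusted p = 4.39e-16). All 3 genes were also lower with GSK215, by −0.367 for *Mrpl18*, −0.345 for *Mrpl20* and −0.208 for *Mrps11*, the last not called with library totals alone (−0.086).

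In the other direction, *Mrpl23* (chromosome 7, 142532686 to 142540747), a protein at the exit of the peptide tunnel, rose with PROTAC FAK degrader 1 from 16.9, 15.0 and 15.1 CPM to 28.7, 27.3 and 26.3 CPM (log2 fold change 0.815, SE 0.071, edgeR adjusted p = 4.97e-13). *Mrpl9*, a large subunit protein (chromosome 3, 94443318 to 94451130), rose from 104, 98.6 and 98.3 CPM to 158, 155 and 145 CPM (log2 fold change 0.610, SE 0.035, edgeR adjusted p = 2.12e-18). The same gene was called lower with all the other drugs but IN10018, with defactinib and GSK2256098 not in every fit that left out a replicate, and its GSK215 libraries had 74.9, 78.6 and 78.6 CPM (−0.371, SE 0.038, edgeR adjusted p = 6.30e-11). *Mrpl32* was likewise higher with PROTAC FAK degrader 1 (48.7, 42.5 and 43.0 CPM, log2 fold change 0.321, SE 0.060, edgeR adjusted p = 1.05e-05) and lower with GSK215. *Mrpl47* (0.170) and *Mrpl48* (0.393) rose with PROTAC FAK degrader 1, the former not without DMSO replicate 3 (0.135). Opposite in sign were *Mrps6* and *Mrps21*, which fell with PROTAC FAK degrader 1 (−0.551 and −0.469) and rose with BSJ-04-0146. These comparisons share their DMSO libraries, and the differences between drugs at different doses were not tested.

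**Figure D3:**
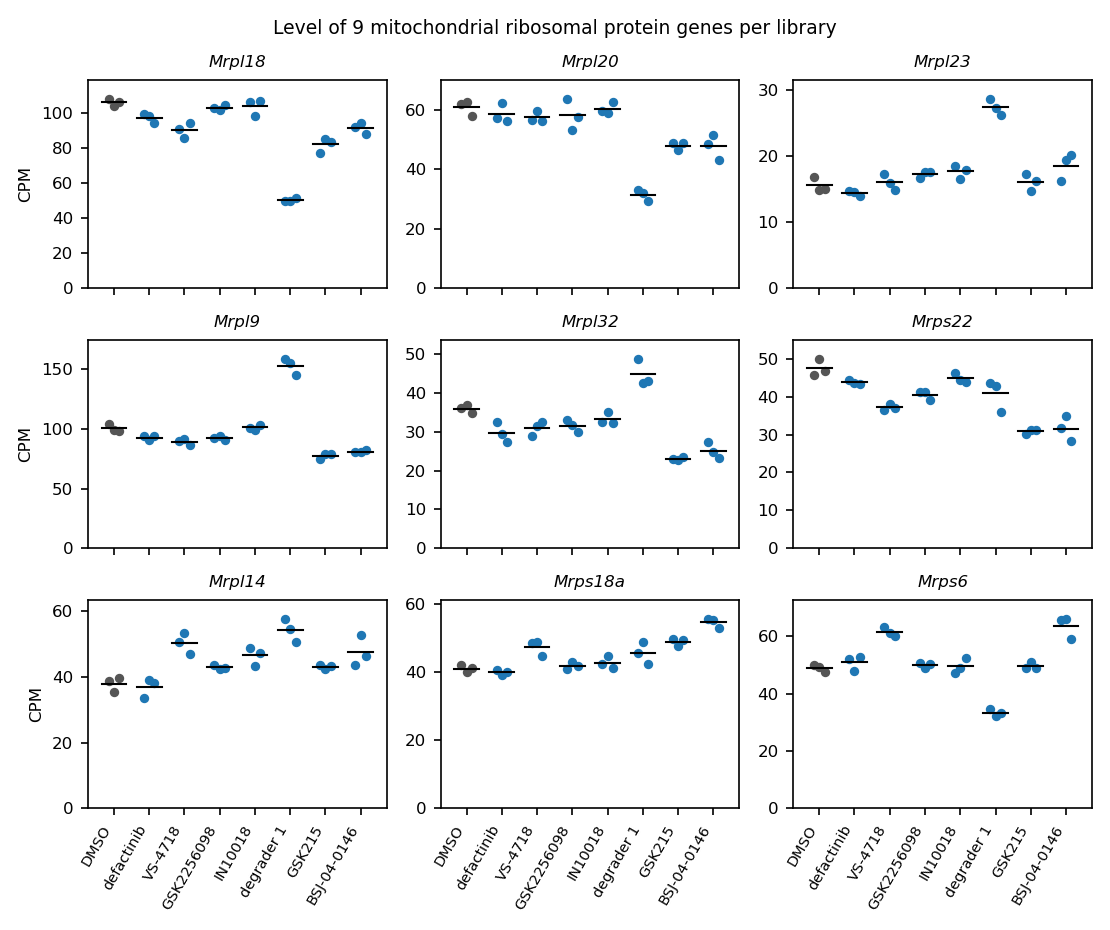
CPM in each library (points) and group mean (lines, n = 3) of 9 genes in the 8 groups, each axis starting at 0, with PROTAC FAK degrader 1 shortened to degrader 1. *Mrpl18* and *Mrpl20* drop and *Mrpl23* and *Mrpl9* rise with PROTAC FAK degrader 1, and *Mrpl32* and *Mrps22* have their lowest mean with GSK215, where the libraries of both genes overlap those of BSJ-04-0146.

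With defactinib 19 genes fell (11% of all genes fell) and no gene was called higher (11.4% of all genes rose) by edgeR. No gene rose at an unadjusted p under 0.05 either, and DESeq2 and limma called 0 higher. The median was −0.0987, against −0.00444 over all genes, and without DMSO replicate 1 the number that fell was 10. *Mrpl17* led with 61.0, 64.7 and 66.3 CPM, against 82.9, 78.5 and 76.1 CPM with DMSO (log2 fold change −0.305, SE 0.046, edgeR adjusted p = 4.23e-06). *Mrpl36*, a small protein of the large subunit, had 29.2, 29.3 and 27.3 CPM against 35.4, 36.1 and 33.7 CPM (log2 fold change −0.294, SE 0.055, edgeR adjusted p = 0.000114). Both groups of libraries were apart in each case.

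With VS-4718, 26 of the 78 genes fell, a larger share than the 18.9% of all genes that fell. Another 14 rose, a smaller share than the 20.4% of all genes that rose. The median was −0.0343, and it turned to 0.00379 with library totals alone. *Mrpl14* rose from 38.6, 35.4 and 39.8 CPM to 50.7, 53.4 and 47.1 CPM (log2 fold change 0.409, SE 0.060, edgeR adjusted p = 6.15e-07). *Mrps6* rose by 0.327 (63.1, 61.1 and 60.1 CPM, SE 0.046, edgeR adjusted p = 2.17e-07). *Mrps22*, at 36.6, 38.2 and 37.1 CPM, had a log2 fold change of −0.353 (SE 0.055, edgeR adjusted p = 1.73e-06), and *Mrpl48* one of −0.344 (SE 0.060, edgeR adjusted p = 1.30e-05).

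GSK2256098 lowered 17 genes and raised 1, against 6.09% and 6.36% of all genes, with a median of −0.0531 (−0.0307 without DMSO replicate 1). The decreases were led by *Mrps22* (41.2, 41.3 and 39.2 CPM, log2 fold change −0.230, SE 0.055, edgeR adjusted p = 0.00371) and *Mrps18b* (−0.228, SE 0.051, edgeR adjusted p = 0.00167). The gene that rose was *Mrps21* (0.224, SE 0.056, edgeR adjusted p = 0.00584), a call lost without DMSO replicate 3 (0.185) or GSK2256098 replicate 1 (0.171). Fewer genes were called in either direction without DMSO replicate 1 (7), without GSK2256098 replicate 2 (9) and without GSK2256098 replicate 3 (10).

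IN10018 left most of the 78 genes short of the threshold. Only *Mrpl14* rose (48.9, 43.3 and 47.4 CPM, log2 fold change 0.297, SE 0.062, edgeR adjusted p = 0.000878), against 6.44% of all genes. *Mrps18b* fell (58.7, 58.5 and 65.0 CPM against 70.2, 68.9 and 68.4 CPM with DMSO, log2 fold change −0.187, SE 0.051, edgeR adjusted p = 0.0104), against 6.85% of all genes. The *Mrps18b* call was lost without IN10018 replicate 1 (−0.166) or 2 (−0.161). The median of the 78 genes was 0.0310, was 0.018 without IN10018 replicate 1 and became −0.00208 with trends in GC content and length removed. Either that setting or a fit to the 6 libraries alone called more genes, 7 and 6.

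**Figure D4:**
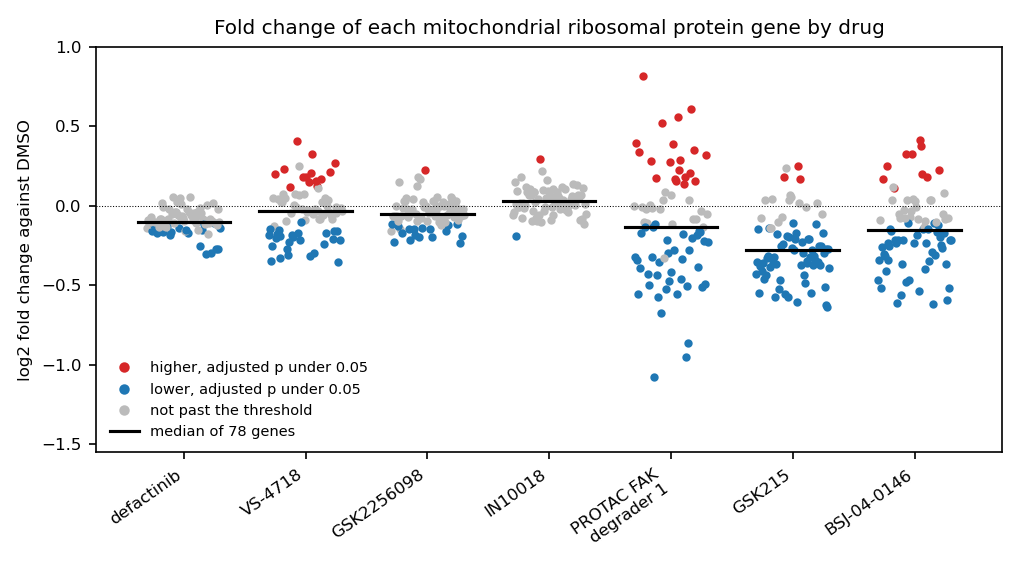
log2 fold change against DMSO of each of the 78 genes (points) for the 7 drugs, coloured by whether the edgeR adjusted p was under 0.05, with the median as a line. Values are widest with PROTAC FAK degrader 1, from −1.08 to 0.815, and the median is lowest with GSK215 at −0.279.

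Over all 7 drugs, 76 of the 78 genes were called at least once, 45 of them lower only, 9 higher only and 22 in both directions. Of all 16070 genes, 84.9% were called at least once, 26.5% lower only, 32.9% higher only and 25.4% in both directions. *Mrpl53* and *Mrpl55* were not called with any drug. *Mrpl53* had the lowest counts, and with SEs of 0.183 to 0.203 only large changes could be seen. No gene was called lower with all 7 drugs, and 6 were with 6 of them (2.17% of all genes were lower with at least 6 drugs), namely *Mrpl12*, *Mrpl16*, *Mrpl19*, *Mrps17*, *Mrps18b* and *Mrps27* (this set was singled out after its values were seen). For 5 of these the drug without a call was IN10018, and for *Mrps18b* it was defactinib (−0.102, SE 0.050, edgeR adjusted p = 0.152). *Mrps27*, an RNA-binding protein of the small subunit, illustrates the set: 69.9, 69.9 and 69.7 CPM with DMSO, 63.1, 59.8 and 61.6 CPM with defactinib, 60.9, 61.8 and 61.8 CPM with VS-4718 and 46.0, 49.4 and 50.4 CPM with GSK215. Some of the smaller decreases in this set did not hold in every alternative, most often those of *Mrps17* with defactinib (−0.117, edgeR adjusted p = 0.0366) and GSK2256098 (−0.129, edgeR adjusted p = 0.0323). *Mrpl14* was called higher with 5 drugs and *Mrps18a* with 4, and neither was called lower with any.

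The 3 mammalian copies of the Mrps18 family were compared side by side. *Mrps18a*, the large subunit copy, rose with VS-4718 and the 3 PROTACs, the rise with PROTAC FAK degrader 1 (0.154) being lost without its replicate 2 (0.105). *Mrps18b*, a small subunit protein, fell with all drugs but defactinib, by 0.251 with VS-4718, 0.339 with PROTAC FAK degrader 1, 0.545 with GSK215 and 0.516 with BSJ-04-0146 on the log2 scale. *Mrps18c*, also of the small subunit, was called with GSK215 (−0.277, SE 0.072, edgeR adjusted p = 0.00111), not with library totals alone (−0.155), and it was also called with PROTAC FAK degrader 1 without replicate 1 of that drug (−0.211). *Mrpl58*, a peptidyl-tRNA hydrolase that frees stalled ribosomes, was called with PROTAC FAK degrader 1 (0.173, SE 0.060, edgeR adjusted p = 0.0105), a call lost without replicate 1 of that drug (0.124), and it was called lower with BSJ-04-0146 without replicate 2 of that drug (−0.196). *Mrps36* fell with PROTAC FAK degrader 1 (−0.461, SE 0.070, edgeR adjusted p = 2.99e-07) and GSK215 (−0.294, SE 0.070, edgeR adjusted p = 0.000463), and its rise with VS-4718 (0.157, edgeR adjusted p = 0.0468) was lost in most alternatives.

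By subunit, 39 of 51 large subunit genes (76.5%, median −0.271) and 20 of 26 small subunit genes (76.9%, median −0.316) fell with GSK215, against 27.2% of all genes. BSJ-04-0146 lowered 30 large and 15 small subunit genes (58.8% and 57.7%, against 26.9% of all genes, medians −0.157 and −0.166). It raised 7 and 3 of them, smaller shares than the 27.7% of all genes that rose. PROTAC FAK degrader 1 lowered 24 large and 14 small subunit genes (47.1% and 53.8%, against 32.7% of all genes, medians −0.115 and −0.149) and raised 16 and 4 (31.4% and 15.4%, against 34.1%). With defactinib 15 large and 4 small subunit genes fell (29.4% and 15.4%, against 11% of all genes, medians −0.0962 and −0.103). With library totals alone, large and small subunit genes that rose against those that fell numbered 6 to 29 and 3 to 14 for GSK215, 10 to 20 and 6 to 11 for BSJ-04-0146, and 17 to 20 and 6 to 10 for PROTAC FAK degrader 1. Differences between the subunits were not tested.

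Pairs of drugs given at the same dose were then compared directly, 3 in all. PROTAC FAK degrader 1 was set against defactinib, the inhibitor from which its FAK-binding part derives. Of the 78 genes, 29 were lower with the PROTAC (34% of all genes) and 26 higher (34.9%), both near the shares of all genes. *Mrpl18* differed by −0.954 (SE 0.043, edgeR adjusted p = 9.27e-22), with defactinib libraries of 99.3, 98.3 and 94.3 CPM, and *Mrpl23* by 0.929 (SE 0.073, edgeR adjusted p = 1.82e-14), with defactinib libraries of 14.8, 14.6 and 13.9 CPM. With library totals alone 25 were lower and 33 higher.

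Between the inhibitors VS-4718 and defactinib, 22 genes were higher with VS-4718 (18% of all genes) and 9 lower (16%). The largest rise was that of *Mrpl14* (0.447, SE 0.061, edgeR adjusted p = 2.02e-07), and the largest fall that of *Mrpl45* (−0.233, SE 0.046, edgeR adjusted p = 9.21e-05), a protein that anchors the ribosome to the inner membrane. *Mrpl45* had 72.4, 72.0 and 76.4 CPM with VS-4718 and 87.2, 90.8 and 81.9 CPM with defactinib.

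Between the PROTACs given at 0.1 μM, 26 genes were lower with GSK215 than with BSJ-04-0146 (12.6% of all genes) and none was higher by edgeR (9.88% of all genes). At an unadjusted p under 0.05, 1 gene was higher, as it was by DESeq2 and by limma. Without BSJ-04-0146 replicate 2, which had the highest summed level of its group, 9 genes were lower and 1 higher. *Mrps6* differed most, with 48.9, 51.1 and 48.9 CPM against 65.7, 66.1 and 58.9 CPM (−0.357, SE 0.049, edgeR adjusted p = 6.44e-07). *Mrps22* and *Mrps18b* had nearly the same level with both, 30.9 against 31.6 CPM and 47.3 against 48.4 CPM.

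The rest of the mitochondrial translation apparatus was described from lists of known genes. The 5 mitoribosomal proteins that carry other names (*Dap3*, *Ptcd3*, *Chchd1*, *Aurkaip1* and *Gadd45gip1*) all fell with GSK215 (median −0.308), among them *Ptcd3* (−0.354, edgeR adjusted p = 3.89e-12) and *Dap3* (−0.102, edgeR adjusted p = 0.0121). With PROTAC FAK degrader 1, *Dap3* (0.471) and *Aurkaip1* (0.193) rose and the other 3 fell. Of 24 tested genes for mitoribosome assembly and rRNA modification, 8 fell (33.3%) and 3 rose (12.5%) with GSK215, where 27.2% and 27.4% of all genes did. With PROTAC FAK degrader 1, 6 fell (25.0%) and 8 rose (33.3%), no more than the 32.7% and 34.1% of all genes. *Noa1*, a GTPase for small subunit assembly, fell with GSK215 (−0.487) and BSJ-04-0146 (−0.385). Of 15 tested translation factors, 9 fell with each of GSK215 and BSJ-04-0146, against 27.2% and 26.9% of all genes, and 10 (66.7%) fell and 2 rose with VS-4718, against 18.9% and 20.4%. With PROTAC FAK degrader 1, 6 (40.0%) fell and 5 (33.3%) rose, against 32.7% and 34.1% of all genes. The elongation factor gene *Gfm1* fell with GSK215 (−0.441) and with PROTAC FAK degrader 1 (−1.02, edgeR adjusted p = 1.05e-26). With library totals alone, 4 assembly genes fell and 5 rose with GSK215, 8 translation factors fell and 3 rose with GSK215, 7 fell and 2 rose with BSJ-04-0146, and 4 fell and 5 rose with PROTAC FAK degrader 1. Under that scaling 3 of the 5 genes with other names fell with GSK215. Genes of the mitoribosomal RNAs were not analysed here.

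Regulators of mitochondrial gene expression, 12 in the list, were mostly lower with the PROTACs: 9 fell and 1 rose with GSK215, 10 fell and 1 rose with BSJ-04-0146, and 7 fell and 2 rose with PROTAC FAK degrader 1. The shares that fell were 75%, 83.3% and 58.3%, against 27.2%, 26.9% and 32.7% of all genes. Under library totals alone, 8 fell and 1 rose with each of GSK215 and BSJ-04-0146, and 6 fell and 4 rose with PROTAC FAK degrader 1. The largest change in the list was a rise of *Ppargc1a*, a coactivator that drives mitochondrial biogenesis, from 1.02 CPM with DMSO to 6.69 CPM under PROTAC FAK degrader 1, a log2 fold change of 2.68 (adjusted p in edgeR of 3.70e-16). Its counts were low, 14 to 36 per DMSO library. Rises were also called with GSK215 (1.36) and with BSJ-04-0146 (1.95), where edgeR's adjusted p was 6.12e-07 and 5.78e-11. *Nrf1*, the factor whose site is GCATGCGC, fell by 0.343 on the log2 scale with GSK215, 0.277 with BSJ-04-0146, 0.217 with PROTAC FAK degrader 1, 0.247 with VS-4718 and 0.206 with defactinib. *Gabpa* fell with GSK215 (−0.201), VS-4718 (−0.162) and BSJ-04-0146 (−0.100) and was not called with the other drugs. *Yy1* fell with PROTAC FAK degrader 1 (−0.154), rose with VS-4718 (0.107) and was not called with the others. *Myc*, which acts on ribosomal genes through the E-box, fell with GSK215 (−0.600), BSJ-04-0146 (−0.619), defactinib (−0.266), VS-4718 (−0.204) and GSK2256098 (−0.224) and rose with PROTAC FAK degrader 1 (0.423). *Pprc1*, a related coactivator, fell with PROTAC FAK degrader 1 from 146.5 to 59.0 CPM (−1.31, edgeR adjusted p = 3.09e-28), and with GSK215 (−0.408), BSJ-04-0146 (−0.586) and IN10018 (−0.263). The part of these regulators in the changes of the 78 genes was not tested.

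Cytosolic ribosomal protein genes do the same task for nuclear mRNAs. With PROTAC FAK degrader 1, 69 of 76 rose and 1 fell (90.8% and 1.32%, against 34.1% and 32.7% of all genes, median 0.310), where 20 of the 78 mitochondrial ones rose and 39 fell. With GSK215 both lists were lower, 74 of 76 cytosolic genes having fallen (median −0.454, against 27.2% of all genes). With VS-4718, 69 of 76 cytosolic genes fell (median −0.320, against 18.9% of all genes), whereas 26 of the 78 mitochondrial ones fell and 14 rose. These directions of the cytosolic genes held with library totals alone and with GC content and length trends removed. The difference between the lists was not tested.

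The mRNAs encoded by mitochondrial DNA, which the mitoribosome translates, were higher with GSK215 for 11 of 13 (median 0.574), where 27.4% of all genes rose. That median is the value of *mt-Nd3*, which had 9 to 11 counts per GSK215 library and was not called (SE 0.439, edgeR adjusted p = 0.279). Of the 13, 6 never exceeded 145 counts per library, whereas 7 had at least 6623 (a split at a mean of 100 CPM, made after the values were seen). With DMSO, *mt-Co2* and *mt-Co3* stood at 2.69 and 2.54 CPM and *mt-Co1* at 13210 CPM. Whether the low counts of the 6 reflect the levels of their mRNAs was not tested, and the values over all 13 include them. Of the 7 abundant mRNAs 6 rose with GSK215, with a median of 0.239. With PROTAC FAK degrader 1, 11 of 13 fell (median −0.831, against 32.7% of all genes), among them *mt-Nd1*, from 6523 ± 22.8 to 2592 ± 54.8 CPM (SD, n = 3 each, log2 fold change −1.33, edgeR adjusted p = 2.31e-23). The 7 abundant ones all fell with that drug (median −0.813). Defactinib raised 8 of 13 (median 0.326, and 0.317 for the 7 abundant), and BSJ-04-0146 6 of 13 (median 0.338, and 0.136 for the 7 abundant, of which 3 rose), against 11.4% and 27.7% of all genes. IN10018 lowered 6 of 13 and raised none (median −0.136), against 6.85% of all genes, and the 6 were among the 7 abundant (median −0.176). For these 5 drugs the sign of the median over the 13 held with library totals alone and with GC content and length trends removed, where BSJ-04-0146 raised 9 and 10 of them. The nuclear genes of the oxidative phosphorylation complexes, 75 in the list, were split with PROTAC FAK degrader 1, where 26 rose and 26 fell (34.7% each, close to the 34.1% and 32.7% of all genes, and 37 and 21 genes with library totals alone). BSJ-04-0146 raised 41 and lowered 13 (54.7% and 17.3%, against 27.7% and 26.9% of all genes, median 0.149), or 56 and 8 with library totals alone, and 31 and 16 (median 0.0661) after removal of GC content and length trends. With GSK215 12 rose and 28 fell (16% and 37.3%, against 27.4% and 27.2% of all genes, median −0.0496), and with library totals alone 32 rose and 16 fell (median 0.0731), so that their direction depended on the scaling.

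**Figure D5:**
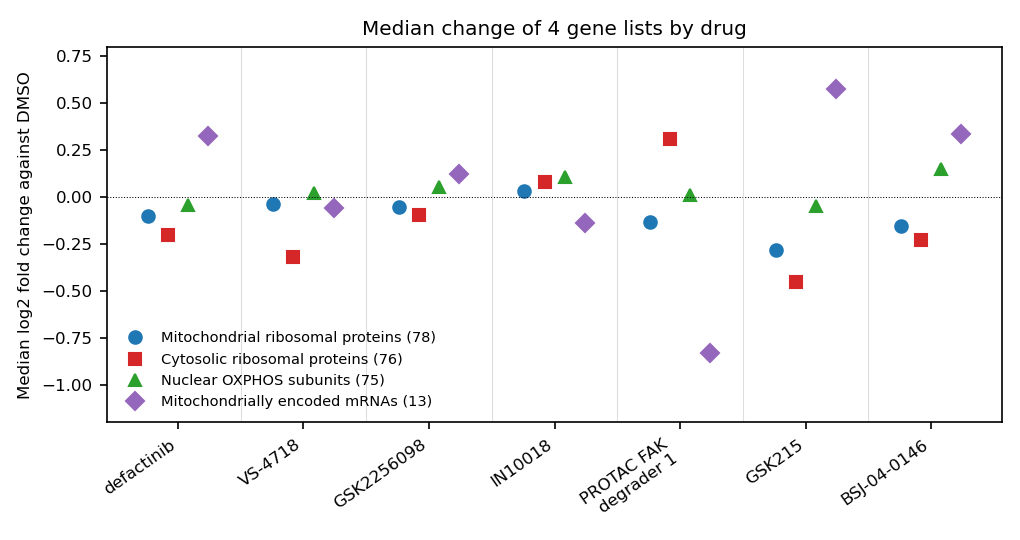
Median log2 fold change against DMSO of 4 gene lists for each drug (numbers of genes in the legend), without error bars since genes of a list are not replicates. Mitochondrial ribosomal protein genes lie at −0.279 and the 13 mitochondrially encoded mRNAs at 0.574 with GSK215 (0.239 for the 7 abundant ones, not drawn), and cytosolic ribosomal protein genes at 0.310 with PROTAC FAK degrader 1.

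Of 11 tested Schwann cell markers, 9 rose with GSK215 and 10 with BSJ-04-0146 (medians 2.28 and 2.00), 8 with VS-4718 (1.01), 7 with defactinib (0.622) and 7 with GSK2256098 (0.606), and with PROTAC FAK degrader 1 3 rose and 4 fell (−0.418). Of all genes, 27.4%, 27.7%, 20.4%, 11.4% and 6.36% rose with the first 5 of these drugs, and with PROTAC FAK degrader 1 the shares of markers that rose and fell, 27.3% and 36.4%, lay near the 34.1% and 32.7% of all genes. *Sox10* itself was at 97.6 CPM with GSK215 and at 12.2 CPM with PROTAC FAK degrader 1. The part of these markers in the changes of the mitochondrial ribosomal protein genes was not tested.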

How the data were processed

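The files held raw counts of reads per gene in 24 libraries, deposited by the authors as 1 table. According to the submitters' processing notes, Trimmomatic 0.36, STAR 2.5.2b, featureCounts and Subread 1.5.2 were used with GRCm38. The strand setting and the annotation release are not given in the sources used here. Genes were filtered with filterByExpr and normalized by TMM, and 1 quasi-likelihood model with 8 group coefficients was fitted in edgeR 4.0.16 (R 4.3.3). Each drug was compared with DMSO, and 3 pairs of drugs given at the same dose with each other, with Benjamini-Hochberg adjustment over 16070 genes and a threshold of 0.05. The authors' counts were also put on the log2(CPM + 4) scale to ask whether libraries of 2 groups overlapped. DESeq2 1.42.0, limma 3.58.1, library totals alone, no filter, the 6 libraries of a comparison alone, a replicate block, leaving out each replicate, and, added after seeing the data, removal of GC content and length trends were tried as alternatives. The steps were tested on simulated data. Counting error is covered by the model, and deeper libraries give smaller errors.

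Named with values were the 10 members with the largest spread over groups, the 2 largest rises and falls per drug with libraries that do not overlap (the largest for each pair of drugs), the 3 highest and lowest per kilobase, and members named for their role. The members and lists were chosen with earlier results of these data known. Replicates are labelled as biological, with no batch given. Deviations from the group means correlated over 0.1 in 9 of 84 same-numbered pairs of libraries and in 28 of 168 others, so the numbers were not taken to pair libraries.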

Additional observations from a re-analysis of the deposited data

How the results depend on the processing

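Named single results kept direction and call in 95 of 133 cases under every alternative run. In 31 cases a call was lost and in 7 one was gained under at least 1 alternative, and none reversed. Of the changed cases, 10 were of GSK2256098, 7 of GSK215 and 6 each of BSJ-04-0146, PROTAC FAK degrader 1 and defactinib. VS-4718 had 2 and IN10018 had 1. The drugs differ in the number of named results, GSK215 having more than GSK2256098 or defactinib, so these counts are not rates. The cause was not tested.

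With library totals alone, the median log2 fold change of the 78 genes was 0.00379 for VS-4718, −0.0508 for PROTAC FAK degrader 1, −0.156 for GSK215 and −0.0444 for BSJ-04-0146, while the median of all genes rose to 0.043, 0.0862, 0.143 and 0.126. With GC content and length trends removed, it was −0.00208 for IN10018, which reversed its sign, −0.293 for GSK215 and −0.204 for BSJ-04-0146. For GSK215 it was −0.293 with no filter and −0.25 with limma. For IN10018, 6 genes were called in a fit to the 6 libraries and 7 with GC content and length trends removed, against 2. Leaving out 1 replicate at a time gave 10 (without DMSO replicate 1) to 19 genes for defactinib, 7 to 14 for GSK2256098, 1 to 2 for IN10018 and 10 (without BSJ-04-0146 replicate 2) to 28 for GSK215 against BSJ-04-0146. Over the same fits the median ran from −0.0594 to −0.0307 for GSK2256098, from 0.018 (without IN10018 replicate 1) to 0.0458 for IN10018 and from −0.295 to −0.275 for GSK215. With the replicate number as a block, 62 genes were called for GSK215, 60 for PROTAC FAK degrader 1, 17 for GSK2256098 and 54 for PROTAC FAK degrader 1 against defactinib, in place of 63, 59, 18 and 55, and the other counts did not move. The deviations of same-numbered libraries from their group means had a median correlation of −0.013 (from −0.25 to 0.2), over 0.1 in 9 of 84 pairs, against 28 of 168 pairs with different numbers. Low counts limit *Mrpl53*, with 31 to 76 per library, and 89.9% of its exon length is overlapped by other genes. The part of this overlap in its low counts was not tested.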
